A study of Rattus norvegicus with 8 samples.

Results

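Among the 24684 probes of the Arraystar rat lncRNA array that are not controls, 1702 carried a transcript name beginning with XR_, the prefix that RefSeq gives to noncoding transcripts predicted by its annotation software. These XR probes were chosen by that name alone, and no measured value entered that rule. The array had 3 spots for each of 1698 XR probes and 10 spots for each of the other 4.

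The arrays came from male F344 rats at week 95 of a lung carcinogenesis study of NNK, a nitrosamine of tobacco smoke that causes lung tumors in rats. The 3 lung tumors and the 3 matched normal lung tissues were all taken from rats given NNK, so the normal lung was not unexposed tissue, and the tumors were moderately differentiated adenocarcinomas. The 2 blood samples, labelled as clot from whole blood, came from 1 control rat and 1 rat given NNK. The label describing the NNK clot is a copy of one for a lung tumor. Since its title, source and tissue fields all give blood, it was taken as blood.

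RefSeq keeps curated and predicted transcripts apart. A curated noncoding transcript has the prefix NR_, while an XR_ model is assembled by software from aligned transcripts and genome sequence and may later be revised, merged or withdrawn. The class takes in long noncoding RNA (lncRNA) models and transcribed pseudogenes, whose sequence can be close to that of a coding gene. Long noncoding RNAs in general are known for low levels and for restriction to particular tissues, and a measured signal says that RNA bound the probe, not what the transcript does. No function is given here for any XR transcript, since 0 of the 1702 accessions matched the reference table used. Probe sequences and positions were not used here, so binding by RNA of a related coding gene was not tested.

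A spot on the array was well above background where the scanner software marked it so, and a probe was counted as detected where more than 50% of its spots were. On the normal lung arrays 610, 580 and 651 XR probes were detected, which is 35.8%, 34.1% and 38.2% of them. Lung tumor 1 had 686 (40.3%), lung tumor 2 had 852 (50.1%) and lung tumor 3 had 797 (46.8%). Every tumor array thus detected more XR probes than every normal lung array, and tumors 2 and 3 stood above tumor 1. Over all probes of the array the same share was 60.3% to 62.5% in normal lung and 62.9% to 67.9% in tumor. The control blood array detected 729 XR probes (42.8%) and the NNK blood array 727 (42.7%), against 53.3% and 53.9% of all probes.

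Signal in the upper range was likewise higher in tumor. The 75th percentile of the XR processed signal, before any scaling between arrays, was 44.3, 52.2 and 49.4 in normal lung and 62.3, 86.3 and 92.1 in tumors 1 to 3. For all probes it lay between 2955 and 3329 on the 6 lung arrays, with no tumor array above all normal ones. The XR median did not show this order, with 6.57 to 9.90 in normal lung, 5.97 in tumor 1, and 10.4 and 11.8 in tumors 2 and 3. In blood the XR value was 70.9 on the control array and 136 on the NNK array, and that of all probes was 128 and 280.

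**Figure D1:**
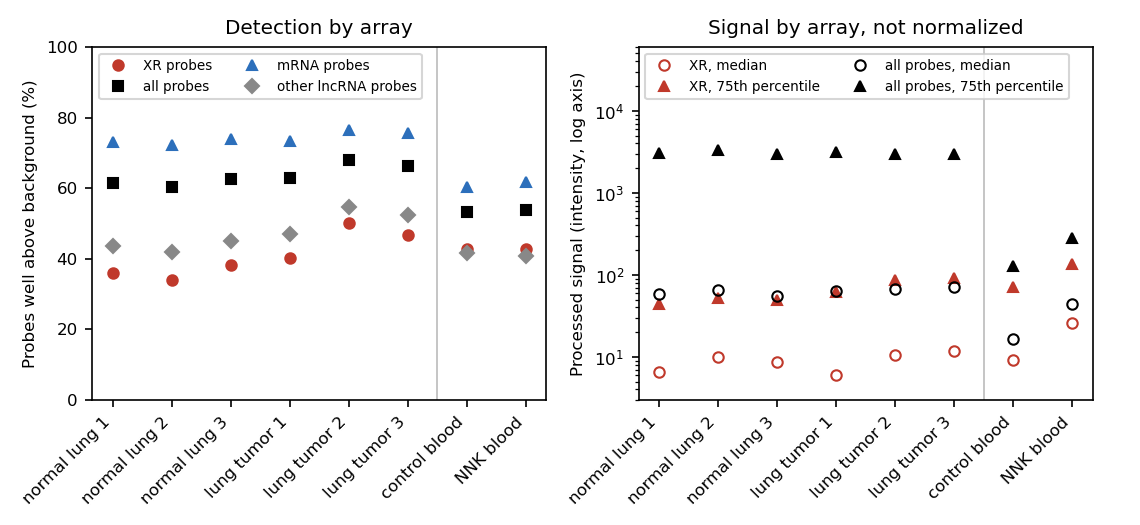
The left panel gives the percent of probes well above background on each of the 8 arrays for XR probes, all probes, mRNA probes and the other lncRNA probes, and the right panel gives the median and the 75th percentile of the processed signal on a log axis before scaling between arrays. XR probes run from 34.1% in normal lung 2 to 50.1% in lung tumor 2 and reach 42.8% and 42.7% on the blood arrays, where they are close to the other lncRNA probes.

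Of the 1702 XR probes, 405 (23.8%) were detected on all 8 arrays and 655 (38.5%) on none, against 38.8% and 20.4% of all probes. All 6 lung arrays detected 543 XR probes (31.9%, against 56.3% of all probes), and both blood arrays detected 634 (37.3%, against 47.7%). A total of 85 XR probes (4.99%) were on all 6 lung arrays and on neither blood array, a pattern held by 11.6% of all probes. The opposite pattern, both blood arrays and no lung array, was held by 68 XR probes (4.00%) and by 2.41% of all probes. The XR share thus lay below that of the whole array for the lung pattern and above it for the blood pattern, and no test was made of either. Detection on all 3 tumor arrays and on no normal lung array was found for 54 XR probes (3.17%, against 2.16% of all probes), and the reverse for 6 (0.353%, against 0.523%). Of the 54, 25 were also detected on both blood arrays and 15 on neither. Over the whole array 533 probes had that lung pattern, of which 175 were on both blood arrays and 262 on neither.

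The arrays of one group were compared before any test. The ratio of the squared difference between 2 arrays to that expected from the spread between spots of 1 array was 0.568 to 0.899 among the 3 normal lung arrays and 0.560 between lung tumors 2 and 3, so these arrays differed by less than the noise of their spots. It was 3.32 and 3.60 for tumor 1 against tumors 2 and 3, and 9.46 to 13.3 for normal lung against tumor. Arrays that agree this closely can be one RNA measured again. Values are therefore given per array, and the counts of calls in lung and the named calls are given also with the 3 normal lung arrays averaged into 1 value and tumors 2 and 3 averaged into 1 value. In that second fit only the difference between tumor 1 and the other tumors measures the spread, and the single normal value is assumed to vary alike. The labels do not say that the samples of a group are separate animals. The authors describe the 3 tumors as independent samples, paired with matched normal lung. Whether the close arrays are repeats of one RNA was not tested. The p-values measure only the spread between these arrays, which may be technical. By their shared scans, the 3 normal lung arrays and tumor 1 lay on 1 slide, tumors 2 and 3 on another and both blood arrays on yet another.

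Marker genes, read from mRNA probes, differed between the groups too, and markers not above background in lung included Cd4, Cdh5 and Marco. In tumor, 4 of 5 tested probes of type 1 alveolar cells, 3 of 3 of endothelial cells, 3 of 5 of red blood cells, 3 of 3 of platelets and 4 of 5 of liver fell, 2 of 3 of proliferating cells rose, and 0 of 6 of type 2 alveolar cells passed the threshold. On the scale of all 8 arrays, the mean log2 level of the red blood cell list was 13.45 in normal lung, 11.30 to 11.45 in tumor and 17.96 to 18.07 in blood. That of the type 2 alveolar list was 16.21 to 16.23, 16.79 to 16.82 and 7.82 to 7.88. Surfactant genes were thus high in both kinds of lung sample, and hemoglobin genes were highest in the clots. Some listed probes were not tested in lung. Among these, Pf4 of platelets read 10.96 to 11.07 in normal lung and 11.87 to 12.10 in tumor. Sftpc of type 2 alveolar cells read 14.30 to 14.48 and 15.67 to 16.03. Both were thus higher in tumor, while the untested Aqp5, Pdpn and Pecam1 were lower. T cell markers stood at 9.88 in control and 11.45 in NNK blood, neutrophil markers at 13.42 and 14.65, platelet markers at 15.03 and 14.01, and endothelial markers at 7.10 and 5.79. The part of cell makeup in the XR results was not tested, and in bulk tissue fewer cells of a type and less RNA per cell cannot be told apart.

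Which XR transcripts differed between lung tumor and normal lung was asked with limma on log2 signals quantile-normalized within the 6 lung arrays, called levels here. A probe entered if it was detected on at least 3 of the 6 arrays and kept at least 2 values per group. A call needed a change of at least 2-fold and a Benjamini-Hochberg adjusted p of at most 0.05 over all 12471 probes tested. Of the 1702 XR probes, 790 were on no lung array, 214 were on 1 or 2, and 698 passed the filter on detection. Of the 698, 117 lost too many spots to the outlier marks of the scanner software, and 581 were tested.

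XR probes moved mostly upward in tumor. A total of 164 of the 581 (28.2%) were higher in lung tumor, where 13.5% of all probes tested were. Only 30 (5.16%) were lower, where 15.5% of all probes tested were, and 387 were not called. Thus 84.5% of the called XR probes were higher, against 46.6% of all called probes. The median change over the 581 was 0.58 on the log2 scale, against 0.07 over all probes tested, and 447 of them (76.9%, against 53.0%) had a change above 0. Once near-identical arrays were counted as 1, 24 XR probes (4.13% of 581) were higher and 16 lower, which is a split of 60.0% higher. Of all probes tested 6.31% were then higher and 7.91% lower, so the share of XR probes called higher lay below that of the array. The median change of the XR probes in that fit was 0.55. At an unadjusted p of at most 0.05 it gave 92 higher (15.8%) and 25 lower (4.30%), against 12.3% and 14.1% of all probes. By normexp 73 XR probes were higher (12.6%) and 12 lower (2.07%), against 7.75% and 10.1% of all probes. The 6 separate arrays gave 172 higher and 31 lower at an unadjusted p, where 13.8% and 15.8% of all probes tested were.

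Of the 4 other classes compared, the uc. probes also leaned upward, and the MRAK, BC and NM_ probes did not. Of the MRAK probes, a set of lncRNA probes with that name, 13.7% were higher and 15.7% lower. Of the BC probes 11.4% and 15.4%, and of the mRNA probes with the RefSeq prefix NM_ 11.53% and 16.8%. The probes named uc., for ultraconserved regions, came nearest with 22.2% higher and 4.04% lower among 198 tested. The classes are set side by side as counts, and no test was made between them.

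XR probes had lower signals than the array as a whole, so the calls were also counted within ranges of the mean level. Below a log2 level of 4, 32.9% of the 76 XR probes tested were higher, against 24.3% of all probes in that range. Between 4 and 6 it was 23.7% of 215 against 16.6%, and between 6 and 8 it was 31.3% of 112 against 15.2%. Between 8 and 10 the shares were 40.4% of 57 and 15%, between 10 and 12 they were 18.4% of 38 and 13.4%, and above 12 they were 27.7% of 83 and 6.91%. The share of XR probes called higher lay above that of all probes in each of the 6 ranges. Of the 426 tested XR probes that were on all 6 lung arrays, 110 were higher and 19 lower, where 11.1% and 15.6% of all such probes were, and the median fold of the 110 was 3.21. Another 32 of the 164 were on no normal lung array, and 6 of the 30 were on no tumor array.

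**Figure D2:**
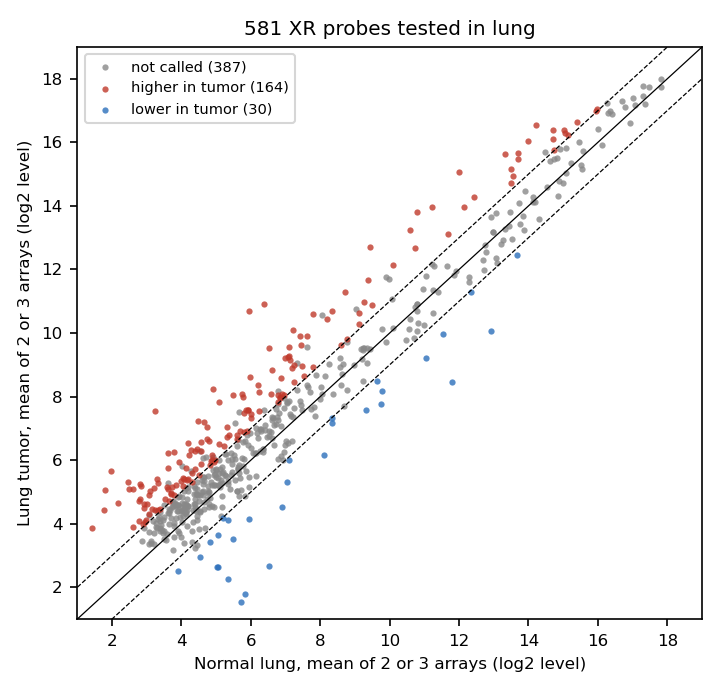
Each point is 1 of the 581 XR probes tested, with its mean log2 level in normal lung on the horizontal axis and in lung tumor on the vertical axis, the solid line marking equal levels and the dashed lines a 2-fold change. The 164 probes called higher lie above the upper line at every brightness, and the 30 called lower lie below the lower line.

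Outlier marks took more spots in tumor than in normal lung. Of the single XR spots well above background, 6.23% to 11.3% were marked on the normal lung arrays, and 16.0%, 19.7% and 24.8% on tumors 1 to 3. With the marked spots kept, 698 XR probes were tested, of which 230 (33.0%) were higher and 32 (4.58%) lower, against 13.5% and 14.4% of all probes. With the slide as a block, so that tumor 1 was set against the normal lung arrays on its own slide, 128 (22.0%) were higher and 27 (4.65%) lower, against 13.3% and 13.2% of all probes, and 111 of the 128 were among the 164.

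The tumors were not alike in the XR probes. Between tumors 2 and 3, 1.65% of the XR probes compared differed by at least 2-fold, and between pairs of normal lung arrays 4.49% to 5.51% did. Between tumor 1 and tumor 2 it was 17.4%, and between tumor 1 and tumor 3 18.7%, where 6.88% and 8.82% of all probes did. Of the 164 XR probes called higher, tumors 2 and 3 stood at least 2-fold above tumor 1 in 63 (38.4%), against 9.73% of all probes called higher. In 0 of the 164 did tumor 1 stand at least 2-fold above tumors 2 and 3. The median rise over normal lung was 1.25 in tumor 1 and 1.90 in tumors 2 and 3 on the log2 scale. A 2-fold rise over the normal mean was reached by 116 of the 164 in tumor 1 and by 154 in tumors 2 and 3. For the 30 called lower, 29 agreed within 2-fold between tumor 1 and tumors 2 and 3, with median changes of -1.51 and -1.77. A gap of at least 2-fold was thus found in 3.33% of them, against 7.55% of all probes called lower. Tumor 1 shared its slide with normal lung and not with the other tumors, so the tumor and the slide cannot be told apart here.

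**Figure D3:**
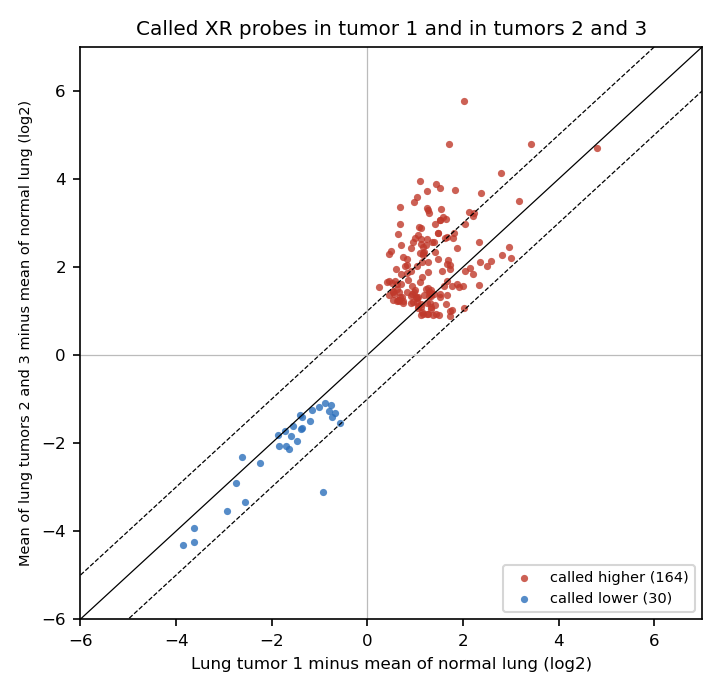
Each point is 1 of the 194 called XR probes, with the change from the normal lung mean in lung tumor 1 on the horizontal axis and in the mean of lung tumors 2 and 3 on the vertical axis, both in log2, and the dashed lines 2-fold apart from equality. Of the 164 probes called higher, 63 lie on or above the upper dashed line and 0 below the lower one, while 29 of the 30 called lower lie between the lines.

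The rises with the largest fold among XR probes on all 6 lung arrays differed in how near tumor 1 stood to the other tumors with a value. XR_009241 stood at log2 levels of 5.81, 5.90 and 6.15 in normal lung and 10.76, 10.65 and 10.66 in tumors 1 to 3. It rose 26.7-fold (log2 change 4.74 ± 0.10 SE, adjusted p = 4.72e-06), and its 3 tumor arrays lay closer together than its normal arrays. Its single spots ran from 34.6 to 77.9 in normal lung and from 1484 to 1822 in tumor, so no spot of one group reached the other. XR_007881 stood at 4.84, 4.90 and 5.0 in normal lung and at 8.08 and 8.42 in tumors 1 and 2. In tumor 2, 2 of its 3 spots were marked as outliers, so that level rests on the remaining spot. All 3 of its spots in tumor 3 were marked as outliers, so the fit of its change of 3.34 ± 0.13 (10.1-fold, adjusted p = 5.83e-05) left that array out. Both calls held with near-identical arrays averaged, with an adjusted p of 0.0347 for each.

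In the other 4 of these 6 rises tumor 1 stood more than 2-fold below the other tumors with a value. XR_006686 stood at 6.30, 6.40 and 6.45 in normal lung, at 8.40 in tumor 1, and at 11.97 and 12.34 in tumors 2 and 3. Its change was 4.52 ± 1.09 (23-fold, adjusted p = 0.0143), with every tumor array above every normal array, as the rule that named it required. It was printed in 10 spots, whose signals ran from 48.9 to 123 in normal lung, 292 to 444 in tumor 1, 3507 to 4487 in tumor 2 and 4064 to 5220 in tumor 3. In tumors 2 and 3, 7 of the 10 spots were marked as outliers and the level rests on the other 3.

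XR_007526 had levels of 11.82, 12.09 and 12.09 in normal lung and 13.44, 15.91 and 15.87 in tumors 1 to 3, a rise of 3.07 ± 0.71 (8.41-fold, adjusted p = 0.0125). XR_006232 went from 10.59, 10.91 and 10.82 to 12.29, 14.45 and 14.71, a rise of 3.04 ± 0.67 (8.24-fold, adjusted p = 0.0105). For both, tumors 2 and 3 stood over 2 log2 units above tumor 1, which in turn stood above all normal arrays. Of XR_007526, 2 of 3 spots were marked as outliers in tumors 1 and 3, and of XR_006232 in tumors 2 and 3. Each of these levels rests on the remaining spot. XR_006778 had 9.03, 9.54 and 9.74 in normal lung, 11.15 in tumor 1 and 14.24 in tumor 2, with no value left in tumor 3, where all 3 spots were marked. In tumor 2, 2 of its 3 spots were marked, and that level rests on the remaining spot. Its rise of 3.26 ± 0.98 (9.58-fold) had an adjusted p of 0.041, and 0.0614 with the replicate number as a block. That call was also lost on leaving out any 1 of the 3 normal lung arrays (adjusted p 0.0879 to 0.106). With the slide as a block, which rests the change on tumor 1, the rises of XR_006686, XR_006778, XR_007526 and XR_006232 came to 2.02, 1.72, 1.44 and 1.51, all still past the threshold. None of these 4 calls held with near-identical arrays averaged, where their adjusted p was 0.219 to 0.249.

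The 6 largest falls among XR probes on all 6 lung arrays ranged from 1.83 to 3.34, and in them the 3 tumors stood close together. XR_008738 stood at 11.96, 11.74 and 11.71 in normal lung and 8.87, 8.35 and 8.16 in tumor, and fell by 3.34 ± 0.20 (10.1-fold, adjusted p = 6.74e-05). On the scale of all 8 arrays it read 15.04 and 15.13 in blood, against 11.0, 10.79 and 10.76 in normal lung and 8.26, 7.81 and 7.65 in tumor. The mean levels of the red blood cell, platelet and neutrophil markers lay in the same order, and their part in this fall was not tested. XR_007660 stood at 12.90, 12.90 and 12.96 in normal lung and 10.17, 9.96 and 10.05 in tumor, and fell by 2.86 ± 0.07 (7.27-fold). In normal lung 3 and in tumor 3, 2 of its 3 spots were marked as outliers. XR_009144 went from 6.82, 7.03 and 6.86 to 4.66, 4.42 and 4.47, and fell by 2.39 ± 0.095 (5.23-fold). Its tumor spots were dim, with signals of 18.8 to 31.4, and by normexp its log2 change was only -1.07. In XR_008738, XR_007660 and XR_009144 the tumor arrays lay below all normal arrays by more than the spread within either group. XR_007251, XR_009492 and XR_007266 fell by 1.99, 1.95 and 1.83. By normexp the changes of XR_007251 and XR_009492 were -1.70 and -1.27. XR_007266 read 11.11, 11.07 and 10.93 in normal lung and 9.17, 9.20 and 9.24 in tumor, and was on neither blood array. All 6 falls also passed when near-identical arrays counted as 1.

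Some XR probes were detected in only one kind of lung sample, and their folds are bounds. For these, the brighter group's mean was set against a floor averaged over the dimmer group's arrays, on each the probe's own level or the lowest level of a detected probe, whichever was higher. XR_005441 read 3.27, 3.17 and 3.25 in normal lung, where 0 of its 3 spots on any array were above background, and 6.65, 7.97 and 8.06 in tumor. It was at least 19.5-fold higher in tumor, again with tumor 1 the lowest of the tumors. XR_006895 and XR_007744, also on no normal array, were at least 5.55-fold and at least 5.49-fold higher. XR_007744 nevertheless had 1 of 3 spots above background in normal lung 1 and in normal lung 3. XR_006895 read 4.78, 6.07 and 6.14 in tumors 1 to 3, and XR_007744 read 5.21, 6.77 and 6.77. With near-identical arrays averaged none of these 3 rises passed the adjusted threshold.

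On the opposite side, XR_006421 read 6.46, 6.48 and 6.59 in normal lung and was on no tumor array, where it read 2.89, 2.55 and 2.62. It was at least 13.6-fold lower in tumor, though 1 of its 3 spots was above background in tumor 2 and in tumor 3. XR_007513 read 5.95, 5.59 and 5.94 in normal lung and was at least 8.72-fold lower, and XR_008138 read 5.65, 5.86 and 5.62 and was at least 8.08-fold lower. Both were on neither blood array either, so of the groups sampled they were seen in normal lung alone. All 3 falls also passed with near-identical arrays averaged (adjusted p 0.0347 to 0.0358). With the normexp background correction, which lifts dim signals, the falls of XR_007513 and XR_008138 and the rises of XR_006895 and XR_007744 no longer reached the threshold. The calls of XR_006421 and XR_005441 stood, but with log2 changes of only -1.08 and 1.85, which is less than their bounds.

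**Figure D4:**
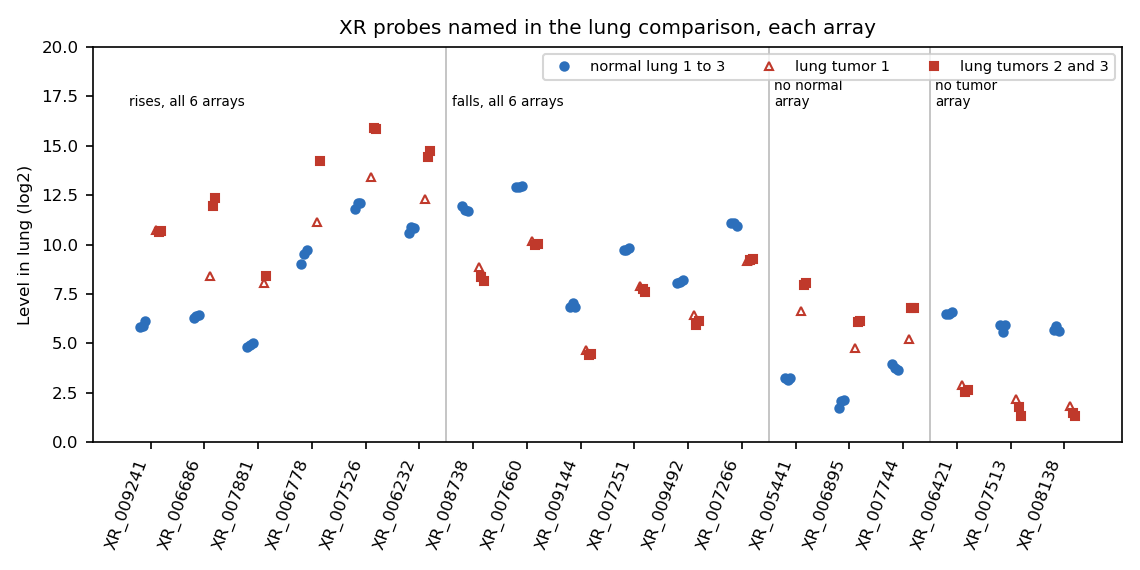
Log2 level on each of the 6 lung arrays for the 18 XR probes named by rank in the lung comparison, with circles for normal lung, open triangles for lung tumor 1 and squares for lung tumors 2 and 3. In every probe the tumor and normal arrays stay apart, which the naming rule required of the probes on all 6 arrays. For XR_006686, XR_006778, XR_007526, XR_006232 and the 3 rises from no normal array the open triangle lies between the normal arrays and the squares.

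The 4 XR probes printed in 10 spots gave the closest look at single probes, and were picked for their spots, not for their values. XR_006686, described above, was on all 8 arrays. XR_009491 was on all 6 lung arrays, with levels of 5.04, 4.88 and 4.99 in normal lung and 5.36, 5.23 and 5.09 in tumor. Its difference of 0.26 ± 0.09 (adjusted p = 0.0485) was far below 2-fold. In blood 1 of its 10 spots was above background on the control array and all 10 were on the NNK array, with signals of 143 to 229, and it was at least 10.1-fold higher in NNK blood. XR_006771 was detected on tumor 2 alone, with 8 of 10 spots above background, and on tumor 3 only 3 of 10 were. XR_009039 was on no array, with at most 1 of 10 spots above background.

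XR transcripts in blood were compared between 1 control rat and 1 rat given NNK, which allows no test and does not separate the treatment from the animal. Levels in blood were quantile-normalized within the 2 blood arrays. Of the 821 XR probes compared, 137 (16.7%) were at least 2-fold higher in NNK blood, where 23.1% of all probes compared were. Another 185 (22.5%) were at least 2-fold lower, where 19.1% of all probes were. The median difference was -0.29 on the log2 scale, against -0.11 over all probes. Among the 633 XR probes on both arrays, 59 were higher and 113 lower, where 18.1% and 14.9% of all such probes were.

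The balance in blood changed by normexp, which sets another background correction and adds an offset. By normexp, 61 XR probes were higher and 32 lower, where 10.3% and 5.81% of all probes were, so that 34.4% of those past 2-fold were lower, where it had been 57.5%. Over all probes the same share went from 45.2% to 36.1%. With a shift of each array to a common 75th percentile the median of all probes moved from -0.11 to -0.26, and 139 XR probes were higher and 214 lower, where 22.3% and 25% of all probes were. A direction for the XR class as a whole in NNK blood is therefore not given.

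Single XR probes differed by more. XR_007069 read 4.57 in control and 8.92 in NNK blood, a 20.4-fold higher level. On the control array its spots had signals of 9.92 to 18.1 and on the NNK array 634 to 663. XR_009064 read 4.64 and 8.44 (14.0-fold) and XR_005439 read 4.43 and 8.01 (12-fold). All 3 were close to background in control blood, with 2 of 3 spots above it. The size of these 3 rises moved with the scaling. On the log2 scale, XR_007069, XR_009064 and XR_005439 were 2.67, 2.14 and 1.93 higher by normexp, 6.77, 6.11 and 5.91 higher after quantile normalization over all 8 arrays, and 6.63, 6.02 and 5.93 higher in the authors' values. XR_006927 had all spots above background on both arrays and read 8.78 and 12.57 (13.9-fold), with unscaled signals of 299 to 348 and 6161 to 6927. Its difference of 3.79 on the log2 scale was 2.82 to 3.60 under the other scalings. Within the lung arrays it read 14.74, 14.69 and 14.79 in normal lung and 15.46, 15.46 and 15.51 in tumor, a difference of 0.74 that did not reach 2-fold. In tumors 2 and 3, 2 of its 3 spots were marked as outliers.

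XR_007365 was lower in NNK blood, at 11.97 in control and 9.13 in NNK blood (7.17-fold), with signals of 3516 to 3986 and 564 to 840. XR_007707 read 10.48 and 7.67 (6.97-fold) and XR_006457 read 7.58 and 5.05 (5.78-fold). The difference of XR_006457 was -1.40 by normexp and -4.40 after quantile normalization over all 8 arrays, and that of XR_007365 was -2.22 to -3.46 under the other scalings. For these 3 no spot of one array overlapped the other array's spots in signal. XR_007239 read 10.24 and 7.89 (5.07-fold), but its spots ran from 282 to 4791 on the control array and from 294 to 3944 on the NNK array and overlapped. With its outlier-marked spot kept its log2 difference was -1.03, and in the authors' values -0.89, so the 5.07-fold difference holds only without that spot. In lung XR_007707 read 10.11, 10.07 and 10.10 in normal lung and 10.22, 10.14 and 10.11 in tumor, a difference of 0.06 ± 0.05. XR_007365 could not be fitted in lung, where all 3 spots of tumors 2 and 3 were marked.

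On 1 blood array alone, 93 XR probes were detected in NNK blood only (5.46%, against 6.19% of all probes). In control blood only, 95 were detected (5.58%, against 5.61% of all probes). As bounds, 58 of the 93 were at least 2-fold higher in NNK blood and 59 of the 95 at least 2-fold lower. At 4-fold the bounds held for 26 and 9. These bounds were not counted over all probes. The largest bounds were 27.9-fold higher for XR_007631 and 27.0-fold higher for XR_005773, which were named after their values were seen. On the control side no bound passed 7.91-fold.

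Lung and blood changes were both available for 467 XR probes. Of the 129 called higher in tumor, 20 were at least 2-fold higher in NNK blood, 22 were lower and 87 lay within 2-fold. Of the 322 not called in lung, 67 were higher, 47 lower and 208 within 2-fold. A rise in tumor was thus paired with a rise in NNK blood in 15.5% of probes, against 20.8% of those not called in lung, and the pairing was not tested. Of the 16 called lower in tumor, 3 were higher and 5 lower in blood. Of all probes compared in blood, 23.1% were higher and 19.1% lower. The pairing with lung was not counted over all probes, so it is not known to be particular to XR probes.

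Ranked by the smaller of the lung and blood differences as measured, 3 probes came first, each with a blood level that was not above background in control blood. XR_006421 was at least 13.6-fold lower in tumor and at least 2.54-fold higher in NNK blood, where 2 of its 3 spots were above background and 0 were in control blood. XR_007660, which fell 7.27-fold in tumor, read 1.99 in control and 4.52 in NNK blood, a bound of 1.94-fold. XR_006874 was on no normal lung array and read 5.17, 4.39 and 4.35 in tumor, at least 2.73-fold higher. That call was lost with near-identical arrays averaged (adjusted p = 0.0595) and by normexp, where the change was 0.40. In blood it read 2.06 and 4.45, a bound of 1.85-fold. These blood bounds hold for the scaling used. Among the alternatives, the log2 differences of XR_006421, XR_007660 and XR_006874 in blood came down to 0.67, 0.44 and 0.42, less than the bounds. The lung change of XR_006421 likewise came down to -1.08.

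**Figure D5:**
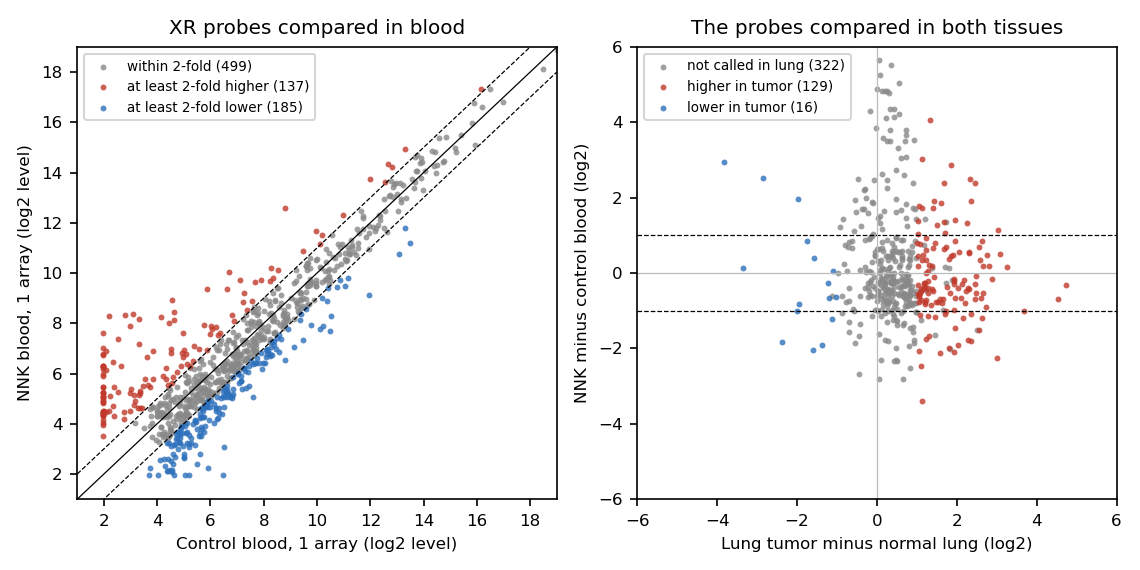
The left panel sets the log2 level in NNK blood against that in control blood for the 821 XR probes compared, with dashed lines at 2-fold, and the right panel sets the NNK minus control difference in blood against the tumor minus normal change in lung for the 467 probes compared in both. In the left panel 137 probes lie above and 185 below the lines, many of them at the dim end, and in the right panel the 129 probes higher in tumor spread to both sides of 0 in blood.

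The levels of lung and blood were set side by side after quantile normalization over all 8 arrays. Blood lay on a slide of its own, so the tissue and the slide cannot be told apart, and the values are a description. Of 827 XR probes compared, 443 (53.6%) were at least 2-fold higher in blood with no overlap of the arrays, where 36.5% of all probes were. Only 146 (17.7%) were higher in lung, where 39.5% of all probes were. The median of lung minus blood was -1.90 over the XR probes and 0.13 over all probes. The size of this difference moved with the scaling. With the shift to a common 75th percentile, 601 XR probes were higher in blood and 71 in lung, and the median was -3.98 against -1.26 over all probes. All probes leaned to blood as well under that shift, with 48.4% higher in blood and 29.4% in lung. By normexp 330 XR probes (39.9%) were higher in blood and 90 (10.9%) in lung, against 29.4% and 30.8% of all probes. In the authors' values it was 506 (53.6%) and 168 (17.8%) of 944, against 34.5% and 41.3%. More XR probes were higher in blood than in lung under each of these 4 scalings. The unscaled signals did not all lie in that order. Their XR 90th percentile was 1643 to 3258 on the lung arrays and 589 and 900 in blood. The XR 75th percentile was 44.3 to 92.1 on the lung arrays and 70.9 and 136 in blood. Lung and blood were not compared within ranges of level.

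A few XR probes were bright in one tissue and not detected in the other. XR_009447 read 13.86 in control and 13.52 in NNK blood and from 1.60 to 3.17 on the 6 lung arrays, at least 1732-fold higher in blood. XR_007473 read 13.75 and 13.37 in blood and at least 1399-fold less in lung, and XR_006266 read 12.15 and 11.09, at least 412-fold more than in lung. All 3 were on both blood arrays and on no lung array. Single lung spots were nevertheless above background. XR_007473 had 1 of 3 such spots in normal lung 2 (signal 78.6) and in normal lung 3 (140), and XR_006266 had 1 in the same arrays (17.3 and 49.1). XR_009447 had 1 in normal lung 2 (44.1) and 1 in tumor 3 (12.7). By normexp the lung minus blood difference of XR_009447, XR_007473 and XR_006266 was -7.63, -7.50 and -5.67 on the log2 scale, which is less than these bounds.

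In the other direction, XR_007329 read 13.11, 13.21 and 13.22 in normal lung and 13.27, 13.06 and 13.21 in tumor, and 3.89 and 4.78 in blood. It was at least 461-fold higher in lung, and its tumor minus normal difference was 0.00 ± 0.07 (adjusted p = 0.986). In tumors 2 and 3, 2 of its 3 spots were marked as outliers, and in NNK blood 1 of 3 was above background. XR_007238 read 11.69 to 11.72 in normal lung, at most 11.06 in tumor and at most 2.0 in blood, at least 202-fold higher in lung. XR_006833 read 11.63, 11.56 and 11.55 in normal lung, while all its spots in tumor were marked as outliers. It was at least 215-fold higher in normal lung than in blood, and no bound was available for tumor. With marked spots included, its unscaled mean signals were 6026 to 6721 in normal lung and 2851 to 3427 in tumor. In control blood 1 of its 3 spots was above background, where its highest spot had a signal of 73.7. These 3 were on all 6 lung arrays and on neither blood array. By normexp the lung minus blood difference of XR_007329, XR_007238 and XR_006833 was 6.72, 5.37 and 5.13 on the log2 scale, and by the 75th percentile shift 7.05, 7.14 and 6.72, so the bounds hold for the scaling used and not for these. The values of XR_006833 again rest on normal lung alone.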

How the data were processed

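The deposited scanner output of the 8 arrays held spot intensities from Agilent Feature Extraction 10.5.1.1, with that program's flags for signal above background and for outliers. The processed signal was background-subtracted by that software and left unscaled. A second deposited table held log2 values that the authors had quantile-normalized with GeneSpring, 8 arrays together, and it served as an alternative. Their medians per array were 5.616 to 5.619, they ran in the direction of the scanner signals, and 4 XR probes were absent from them. The background and outlier flags were used as deposited. The XR members were set by their name alone, though this class and the marker lists were chosen with earlier results of these data known.

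With R 4.3.3 and limma 3.58.1, log2 signals of 42136 spots were quantile-normalized within the 6 lung arrays, within the 2 blood arrays, and over all 8 for lung against blood. Outlier-marked spots were left out, the others averaged per probe, and no spot was saturated. The fit (lmFit, eBayes, two-sided) had the group as its only term and was tested on simulated data. The authors describe the tumors as matched to normal lung, and the sample titles number both kinds alike. Over 11359 probes the correlations of the deviations of same-numbered samples were 0.14, -0.04 and 0.16. Those of differently numbered samples ran from -0.19 to 0.14.

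Named XR probes were, in lung, the 6 largest rises and 6 largest falls among called probes on all 6 arrays with no overlap and the 3 largest bounds each way. In blood they were the 4 largest each way among probes on both arrays. Between the tissues they were the 3 largest bounds each way, and across both comparisons the 3 probes with the largest smaller change. A planned comparison of probe sequences was not made. Marker genes were matched by accession to RefSeq transcripts of the assembly GRCr8, for 14274 of 15321 mRNA probes (93.2%). The number of arrays limits the precision. Alternatives were other normalizations, normexp with an offset of 50, the authors' values, marked spots kept, other filters, the methods' t-test, replicate and slide blocks, near-identical arrays counted once, and each array left out.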

Additional observations from a re-analysis of the deposited data

How the results depend on the processing

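Limits come from the number of arrays and from dim signal. By normexp 73 XR probes were higher and 12 lower in lung tumor, and in blood 61 were higher and 32 lower. Counted once, near-identical arrays gave 24 higher and 16 lower (92 higher at an unadjusted p, a setting added after seeing the data). Restricted to probes on all 6 lung arrays, 19 were lower (4.46%, against 15.6% of all such probes). Leaving out 1 lung array gave 120 to 168 higher and 25 to 35 lower. Of all probes tested, 12.5% to 14.5% were then higher and 14.3% to 17.9% lower. With the replicate number as a block, 148 (25.5%) were higher and 30 (5.16%) lower, against 12.9% and 15.6% of all probes. Among the named probes this pairing changed the call of XR_006778 alone. In blood, 279 of 820 were lower in the authors' values, where 3880 of all 14669 probes compared were. Among XR probes on both blood arrays 59 were higher and 113 lower.

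Taking 1 spot above background as detection left 237 XR probes on no array and 35 on both blood and no lung arrays. Leaving out 1 lung array, also added after seeing the data, gave 543 to 579 probes on all lung arrays, 85 to 91 of them on neither blood array, 69 to 92 on both blood arrays and no lung array, and 656 to 675 on none. These counts of detection were not made over all probes. Between lung and blood, 71 probes were higher in lung by the 75th percentile shift and 90 by normexp, and 133 to 150 in lung and 435 to 445 in blood on leaving out 1 lung array. For the 19 named lung results, 292 of 311 alternative values kept the call, 19 fell short of the threshold and 0 reversed, and the cause was not tested. These results were named for large changes in the same arrays, so that share is no test of them. Calls that fell short with near-identical arrays counted once are given above with each probe.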
